A study of Homo sapiens with 8 samples.

Results

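The genes described here are 30 members of the machinery that makes, takes up, moves, stores and exports cholesterol, out of 24252 genes listed in each table. They were found by gene symbol: every symbol occurred in 1 row, and that row's symbol was the same in GENCODE 29. The 8 RNA-seq libraries were made from HaCaT, a spontaneously immortalised keratinocyte line from human skin. The 4 OGD-R libraries came from cells treated with OGD/R and taken at an early stage, and the 4 Control libraries came from HaCaT cells for which no treatment is named. OGD/R usually stands for oxygen and glucose deprivation with reoxygenation or reperfusion; the labels do not spell it out or give its length. All cells are of 1 line, so no other source of keratinocytes was compared. Whether libraries of a group came from separate cultures is not given either, so p-values measure the spread among these libraries alone, and that spread may be technical. By its title, the series sought a hub gene for complex regional pain syndrome, in which pain of a limb persists.

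Cells build cholesterol from acetyl-CoA through mevalonate, farnesyl diphosphate, squalene and lanosterol. The transcription factor SREBP-2, encoded by SREBF2, drives most of these enzymes. It is held in the endoplasmic reticulum by its escort SCAP and the INSIG proteins while sterols are plentiful, and is released for cleavage when they are scarce. The liver X receptors act in the other direction: they sense oxysterols and induce the exporters ABCA1 and ABCG1 and the ubiquitin ligase MYLIP. In epidermis, keratinocytes make cholesterol of their own, which joins ceramides and fatty acids in the lipid layers of the skin barrier.

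The values were read as FPKM, fragments scaled to gene length and library size. The unit is not written with the values and was inferred. Between 17188 and 18170 genes per library were above 0. The spacing of low values did not settle how much 1 fragment is worth, so the depth is unknown. All 10 keratinocyte markers examined were expressed in every library, among them KRT5 and KRT14, with summed levels of 13783 to 15095 FPKM in OGD-R and 10908 to 12164 FPKM in Control. KRT5 and KRT14 carried most of that sum. In OGD-R, KRT5, KRT14, DSG3 and PERP lay above all Controls, and KRT6A, SFN and ITGB4 lay below all Controls. TP63, ITGA6 and COL17A1 overlapped between the groups. Messenger RNAs of the mitochondrial genome took 26.6% to 29.1% of the summed FPKM in OGD-R and 17.5% to 21.9% in Control. The Control libraries stood in 2 places. Over 11740 genes, log2 values of Control 1 and Control 2 correlated at 0.992 and those of Control 3 and Control 4 at 0.991, whereas correlations between these pairs were 0.874 to 0.881. The OGD-R libraries correlated at 0.992 to 0.993 with each other, at 0.940 to 0.947 with Controls 1 and 2 and at 0.879 to 0.887 with Controls 3 and 4. Controls 3 and 4 thus stood apart from the other 6 libraries. Genes, over which these correlations were taken, are not independent of each other. Because of this split, levels are given for every Control library, and the comparison was also fitted with either pair of Controls left out. Fibroblast markers summed to 3.82 to 4.99 FPKM in OGD-R, to 0.882 and 1.13 FPKM in Controls 1 and 2 and to 8.72 and 8.07 FPKM in Controls 3 and 4. COL1A1 carried most of that sum, 6 of the 7 markers stayed under 1 FPKM and COL1A2 was listed at 0 throughout; the part of other cells in the results was not tested. Melanocyte markers summed to 2.29 to 2.62 FPKM in OGD-R and 1.21 to 1.596 FPKM in Control with TYR listed at 0, and endothelial markers to 0.296 to 0.482 FPKM in OGD-R and 0.0645 to 0.199 FPKM in Control.

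With all 8 libraries, 1 of the 28 cholesterol genes that could be tested changed: SOAT1, which encodes the enzyme that esterifies cholesterol for storage, fell in OGD-R. Genes were tested with limma on log2(FPKM + 1) where their mean over all libraries was at least 1 FPKM, which ABCA1 and ABCG1 did not reach. Of the 28, 0 were called higher and 1 was called lower at a Benjamini-Hochberg adjusted p of 0.05 over all genes, where 10.2% of the 11740 genes tested were called higher and 9.69% lower. At an unadjusted p of 0.05 the counts were 1 higher and 2 lower. The median log2 fold change was -0.15 for the 28 genes and 0.02 for all genes tested. In bulk RNA, fewer cells that carry a transcript and less of it per cell cannot be told apart.

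Many of the enzymes and regulators spread widely among the Controls, with OGD-R inside that spread. In 20 of the 28 genes, Control 3 and Control 4 were both above Control 1 and Control 2, an order found in 34.1% of all genes tested. In 7 of the 28 they were both below, an order found in 48.1% of all genes tested. All 4 OGD-R libraries lay above Controls 1 and 2 and below Controls 3 and 4 in 11 of the 28 genes, an order found in 6.79% of all genes tested. The opposite order, below Controls 1 and 2 and above Controls 3 and 4, held for 0 of the 28 and for 13.6% of all genes tested. OGD-R lay wholly above all 4 Controls in 1 tested gene, TM7SF2, and wholly below them in 1, SOAT1; over all genes tested the shares were 15.2% above and 14.8% below. The sign found with all libraries turned in 18 of the 28 genes when one or the other pair of Controls was left out. A sign turns where the OGD-R mean lies between the means of the Control pairs, whichever pair is higher, so this count restates that position. Its share over all genes was not taken, and some turned values were near 0, such as 0.028 for EBP without Controls 1 and 2. With Controls 3 and 4 left out, 12 genes were called higher and 4 lower in OGD-R, against a background of 22.8% and 32.4%. With Controls 1 and 2 left out, 2 were called higher and 17 lower, against 39.2% and 28.4%. The median log2 fold change of the 28 genes was 0.21 in the first case, beside -0.05 for all genes, and -0.44 in the second, beside 0.09 for all genes. These reduced fits estimate the spread from libraries that lie close together, so small differences pass in them.

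**Figure D1:**
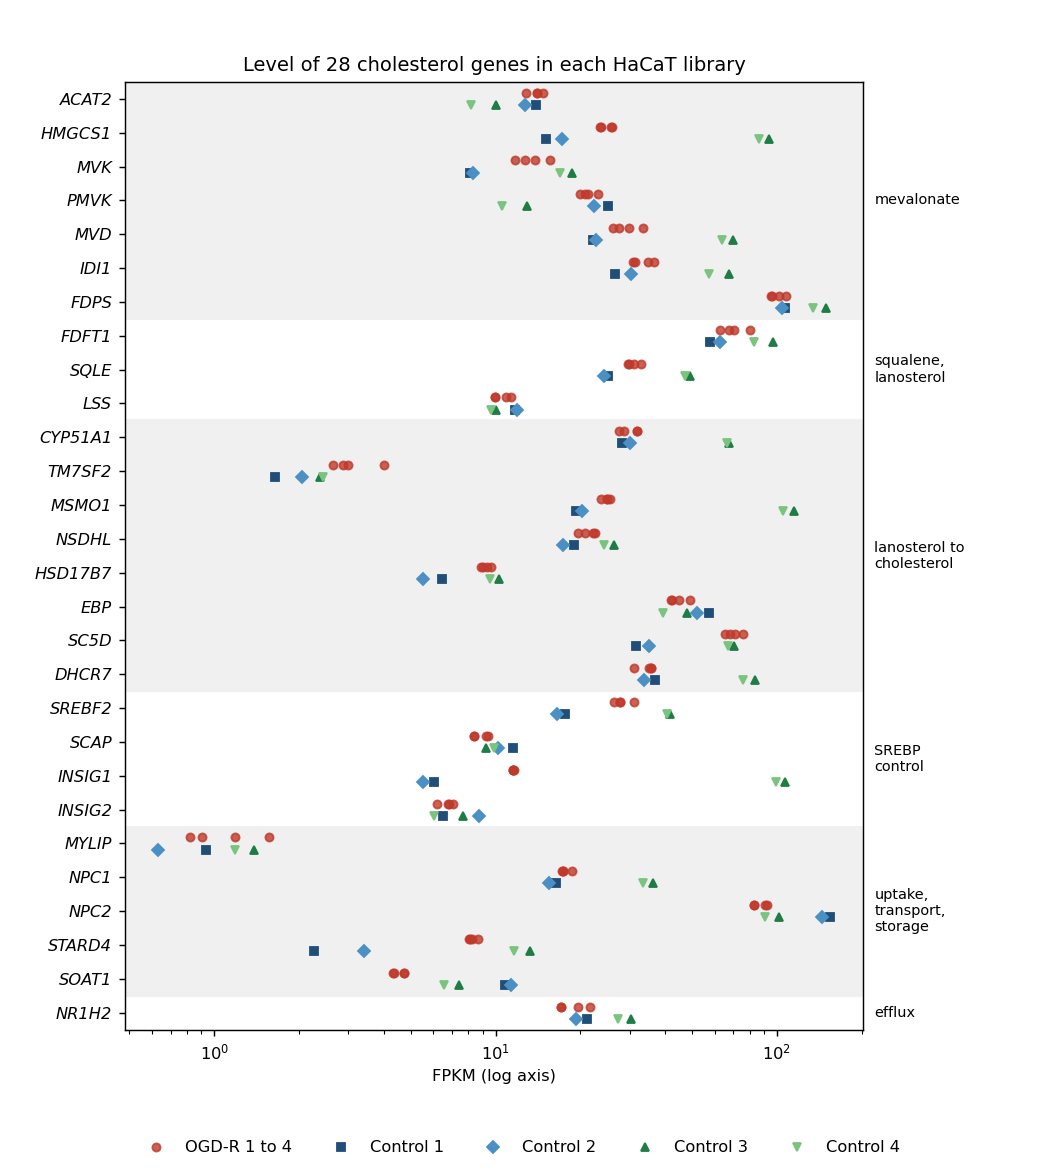
FPKM on a log axis for the 28 tested cholesterol genes, 1 row a gene, ordered by role; red circles are the 4 OGD-R libraries and the other marks are Controls 1 to 4. Controls 3 and 4 lie apart from Controls 1 and 2 in most rows, and the OGD-R libraries of INSIG1, HMGCS1, MSMO1, STARD4 and SREBF2 lie between them.

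The promoters of the tested genes with the widest Control spread, of SREBF2 and of SOAT1 are shown. The first share an order among the Controls, SREBF2 encodes SREBP-2 and SOAT1 is the 1 gene that passed the test. Whether SREBP-2 bears on the Control spread was not tested. Each promoter shown is 300 bases from RefSeq on GRCh38.p14. It is read in the gene's direction from 250 bases before the start site to 50 bases after it. Capitals mark CCAAT boxes, which the factor NF-Y binds, on either strand (CCAAT or ATTGG), and the sterol element TCACNCCAC, a form of the site SREBPs bind.

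INSIG1 (chr7:155297628-155297927, plus strand): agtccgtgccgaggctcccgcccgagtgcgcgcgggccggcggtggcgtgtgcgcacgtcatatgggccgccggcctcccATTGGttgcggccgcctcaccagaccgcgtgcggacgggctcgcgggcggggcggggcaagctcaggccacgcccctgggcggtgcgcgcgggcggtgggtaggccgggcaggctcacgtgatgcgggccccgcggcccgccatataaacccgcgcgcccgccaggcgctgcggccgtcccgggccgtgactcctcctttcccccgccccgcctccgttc
HMGCS1 (chr5:43313363-43313662, minus strand): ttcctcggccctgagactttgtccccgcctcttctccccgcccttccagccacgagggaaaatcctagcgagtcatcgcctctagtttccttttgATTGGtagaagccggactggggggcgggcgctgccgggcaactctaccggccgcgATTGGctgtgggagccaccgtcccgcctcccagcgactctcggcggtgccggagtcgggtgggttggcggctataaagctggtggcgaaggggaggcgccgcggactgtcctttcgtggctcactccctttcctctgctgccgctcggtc
MSMO1 (chr4:165327419-165327718, plus strand): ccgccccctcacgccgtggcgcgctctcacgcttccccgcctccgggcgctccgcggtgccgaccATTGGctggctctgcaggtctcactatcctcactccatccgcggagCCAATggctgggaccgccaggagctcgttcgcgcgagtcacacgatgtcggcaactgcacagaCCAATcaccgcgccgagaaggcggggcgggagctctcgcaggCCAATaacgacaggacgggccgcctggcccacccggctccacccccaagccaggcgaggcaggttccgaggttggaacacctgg
STARD4 (chr5:111512486-111512785, minus strand): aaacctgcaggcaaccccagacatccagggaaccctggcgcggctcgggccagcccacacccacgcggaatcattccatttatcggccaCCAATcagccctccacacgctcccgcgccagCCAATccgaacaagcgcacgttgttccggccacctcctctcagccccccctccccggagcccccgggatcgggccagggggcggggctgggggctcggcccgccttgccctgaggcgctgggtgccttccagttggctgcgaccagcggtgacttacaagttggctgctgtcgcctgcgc
SREBF2 (chr22:41832855-41833154, plus strand): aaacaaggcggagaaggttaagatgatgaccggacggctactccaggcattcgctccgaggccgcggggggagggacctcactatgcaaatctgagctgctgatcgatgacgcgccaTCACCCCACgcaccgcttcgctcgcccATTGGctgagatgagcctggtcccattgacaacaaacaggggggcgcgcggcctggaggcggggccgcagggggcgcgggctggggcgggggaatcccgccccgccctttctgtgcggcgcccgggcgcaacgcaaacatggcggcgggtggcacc
SOAT1 (chr1:179293547-179293846, plus strand): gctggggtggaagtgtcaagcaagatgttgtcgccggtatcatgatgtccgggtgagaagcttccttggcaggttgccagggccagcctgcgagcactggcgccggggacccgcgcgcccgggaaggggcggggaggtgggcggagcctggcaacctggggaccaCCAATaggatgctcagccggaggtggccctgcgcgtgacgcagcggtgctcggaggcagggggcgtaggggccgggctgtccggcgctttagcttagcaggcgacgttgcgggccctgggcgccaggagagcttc

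In the SREBF2 window the sterol element began 133 bases before the start site, and a CCAAT box on the other strand began 106 bases before it. MSMO1 held 4 CCAAT boxes, STARD4 and the HMGCS1 window shown 2 each, and INSIG1 and SOAT1 1 each. Another RefSeq window of HMGCS1 (chr5:43313132-43313431, minus strand), not shown, held 0. RefSeq windows were matched for 26 of the 30 genes. A CCAAT box was found in 19 of the 26, in 34.6% of all 35116 windows and in 43.5% of the 8862 tested genes with a window. The sterol element was found in SREBF2 alone among the 26, in 1.13% of all windows and in 1.57% of tested genes with a window. The GC box GGGCGG, bound by Sp1, was found in 25 of the 26, in 15786 of the 35116 windows and in 78.3% of tested genes with a window. Both strands were searched, a gene with several windows counted once if any held the motif, and 0 matches of different motifs overlapped in the windows of these 26 genes. A match of letters is not a shown binding site, and its absence from 300 bases says nothing about the factor.

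The 7 early enzymes lead from acetyl-CoA to farnesyl diphosphate. With all libraries, 0 of them were called higher and 0 lower, beside 10.2% and 9.69% of all genes tested. Without Controls 3 and 4, 3 were called higher and 0 lower, beside 22.8% and 32.4% of all genes tested. Without Controls 1 and 2, 2 were called higher and 5 lower, beside 39.2% and 28.4%. HMGCS1, the synthase that joins acetoacetyl-CoA and acetyl-CoA, measured 23.7, 25.98, 23.6 and 25.8 FPKM across OGD-R 1 to 4, whereas Controls 1 to 4 measured 15.1, 17.2, 93.5 and 86.00 FPKM. Its OGD-R libraries formed a narrow band above Controls 1 and 2 and far below Controls 3 and 4. The mean was 24.8 ± 1.31 FPKM in OGD-R and 52.95 ± 42.6 FPKM in Control (SD, n = 4 each), and the log2 fold change, -0.61 ± 0.60 (SE), did not pass (limma adjusted p = 0.509). The value was 0.59 without Controls 3 and 4 (limma adjusted p = 0.000207) and -1.82 without Controls 1 and 2 (limma adjusted p = 4.20e-08), so the reduced fits passed in opposite directions. MVK, mevalonate kinase, was at 15.6, 13.8, 12.7 and 11.8 FPKM in OGD-R against 8.09, 8.31, 18.7 and 16.99 FPKM in Controls 1 to 4, again between the pairs. MVD and IDI1, but not PMVK, showed the same order. MVD, the decarboxylase that yields isopentenyl diphosphate, was at 33.3, 29.8, 26.2 and 27.4 FPKM in OGD-R against 22.1, 22.8, 69.9 and 63.5 FPKM in Controls 1 to 4. IDI1, the isomerase of isopentenyl diphosphate, was at 31.3, 36.6, 30.7 and 34.8 FPKM in OGD-R against 26.5, 30.2, 67.4 and 57.4 FPKM in Controls 1 to 4. In both, OGD-R sat just above Controls 1 and 2 and below each of the other Controls by more than its own range. MVK, MVD and IDI1 all passed as lower without Controls 1 and 2, while MVK and MVD, but not IDI1, passed as higher without Controls 3 and 4 (limma adjusted p = 0.0538 for IDI1).

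FDPS, which makes farnesyl diphosphate, was the most abundant of these enzymes per length in every library, at 108, 102, 96.02 and 94.9 FPKM in OGD-R and 106, 104, 149 and 135 FPKM in Controls 1 to 4. Its OGD-R values overlapped those of Controls 1 and 2 and lay below those of Controls 3 and 4, and its log2 fold change came to -0.50 without Controls 1 and 2 (limma adjusted p = 0.0003) and -0.074 without Controls 3 and 4 (limma adjusted p = 0.369). ACAT2 and PMVK ran the other way among the Controls. ACAT2, the cytosolic acetoacetyl-CoA thiolase, was at 14.7, 14.02, 14.1 and 12.8 FPKM in OGD-R against 13.9, 12.8, 10.04 and 8.17 FPKM in Controls 1 to 4. PMVK, phosphomevalonate kinase, was at 21.4, 23.1, 19.9 and 20.8 FPKM in OGD-R against 25.2, 22.4, 12.9 and 10.6 FPKM in Controls 1 to 4. Both were near Controls 1 and 2 and above Controls 3 and 4, and without Controls 1 and 2 they were the 2 genes called higher, by 0.57 and 0.81 on the log2 scale (limma adjusted p = 0.000457 and 4.41e-05). ACAT2 and MVK overlap neighbouring coding genes, and FDPS has 8 named pseudogenes, so reads could be divided differently there.

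Squalene formation and its closure to lanosterol involve 3 of the genes. With all libraries, 0 of them were called higher and 0 lower, beside 10.2% and 9.69% of all genes tested. FDFT1, squalene synthase, was at 70.4, 67.3, 62.7 and 80.02 FPKM in OGD-R and 57.8, 62.9, 96.8 and 82.7 FPKM in Controls 1 to 4, so the groups overlapped. SQLE, the oxygenase that forms squalene epoxide and a rate-limiting step, was at 29.5, 32.8, 29.7 and 30.9 FPKM in OGD-R and 25.1, 24.4, 49.3 and 47.2 FPKM in Controls 1 to 4. Every OGD-R library of SQLE lay between the pairs, and the log2 fold change came to 0.30 without Controls 3 and 4 (limma adjusted p = 0.00399) and -0.63 without Controls 1 and 2 (limma adjusted p = 3.02e-05). LSS, lanosterol synthase, varied little, with 11.3, 10.9, 9.98 and 9.94 FPKM in OGD-R and 11.7, 11.9, 10.1 and 9.61 FPKM in Controls 1 to 4. The log2 fold change, -0.030 ± 0.0977 (SE), did not pass (limma adjusted p = 0.858), and it passed in neither reduced fit.

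Of the 8 enzymes from lanosterol to cholesterol, 0 were called higher and 0 lower with all libraries, beside 10.2% and 9.69% of all genes. Without Controls 3 and 4, 5 were called higher and 1 lower, beside 22.8% and 32.4% of all genes tested. Without Controls 1 and 2, 0 were called higher and 4 lower, beside 39.2% and 28.4%. MSMO1, the sterol methyl oxidase, had the widest Control spread of the group. Its OGD-R libraries measured 24.9, 24.9, 23.7 and 25.4 FPKM, whereas Controls 1 to 4 measured 19.3, 20.2, 115 and 105 FPKM. The mean was 24.7 ± 0.717 FPKM in OGD-R and 64.97 ± 52.4 FPKM in Control (SD, n = 4 each), and the log2 fold change of -0.90 ± 0.60 did not pass (SE; limma adjusted p = 0.33). Without Controls 3 and 4 it was 0.31 (limma adjusted p = 0.00236), and without Controls 1 and 2 it was -2.11 (limma adjusted p = 1.03e-08). Other late enzymes lay at the level of Controls 1 and 2. CYP51A1, lanosterol demethylase, which has 3 named pseudogenes and overlaps other coding genes, was at 31.7, 31.8, 27.5 and 28.6 FPKM in OGD-R and 28.2, 30.2, 67.3 and 66.6 FPKM in Controls 1 to 4. DHCR7, the reductase of the last step of one route to cholesterol, was at 35.04, 35.7, 31.1 and 35.8 FPKM in OGD-R and 36.7, 33.6, 83.5 and 75.9 FPKM in Controls 1 to 4. In these genes OGD-R overlapped Controls 1 and 2 and lay below Controls 3 and 4, and without Controls 1 and 2 they fell by 1.14 and 1.19 on the log2 scale (limma adjusted p = 1.33e-06 and 1.15e-06).

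SC5D and HSD17B7 sat at the level of the higher Controls instead. SC5D, sterol desaturase, was at 65.5, 67.8, 70.7 and 75.7 FPKM in OGD-R and 31.7, 35.1, 70.6 and 67.2 FPKM in Controls 1 to 4, and the log2 fold change came to 1.04 without Controls 3 and 4 (limma adjusted p = 6.11e-06) and 0.020 without Controls 1 and 2 (limma adjusted p = 0.821). HSD17B7, a sterol ketoreductase with 2 named pseudogenes, was at 9.60, 9.04, 8.86 and 9.33 FPKM in OGD-R and 6.44, 5.52, 10.3 and 9.54 FPKM in Controls 1 to 4. TM7SF2, a sterol reductase that overlaps the gene VPS51, was the 1 tested gene with every OGD-R library above every Control. OGD-R libraries measured 2.98, 2.64, 2.86 and 4.02 FPKM and Controls 1 to 4 measured 1.65, 2.05, 2.37 and 2.43 FPKM; the log2 fold change, 0.40 ± 0.14 (SE), did not pass (limma adjusted p = 0.0747). NSDHL, a sterol dehydrogenase, was at 22.5, 22.2, 19.6 and 20.8 FPKM in OGD-R and 18.99, 17.3, 26.3 and 24.2 FPKM in Controls 1 to 4, between the pairs by a small margin. EBP, the sterol isomerase, was at 49.01, 44.8, 42.3 and 42.00 FPKM in OGD-R and 57.3, 51.97, 48.1 and 39.5 FPKM in Controls 1 to 4, so the groups overlapped.

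Summed over the 18 enzymes, the level was 600.3, 595, 552 and 591 FPKM in OGD-R 1 to 4 and 512, 513, 1001 and 908 FPKM in Controls 1 to 4. OGD-R was a little above Controls 1 and 2 and well below Controls 3 and 4. Without Controls 3 and 4, 9 of the 18 were called higher and 1 lower, EBP, beside 22.8% and 32.4% of all genes tested. Without Controls 1 and 2, 2 were called higher and 11 lower, beside 39.2% and 28.4%.

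**Figure D2:**
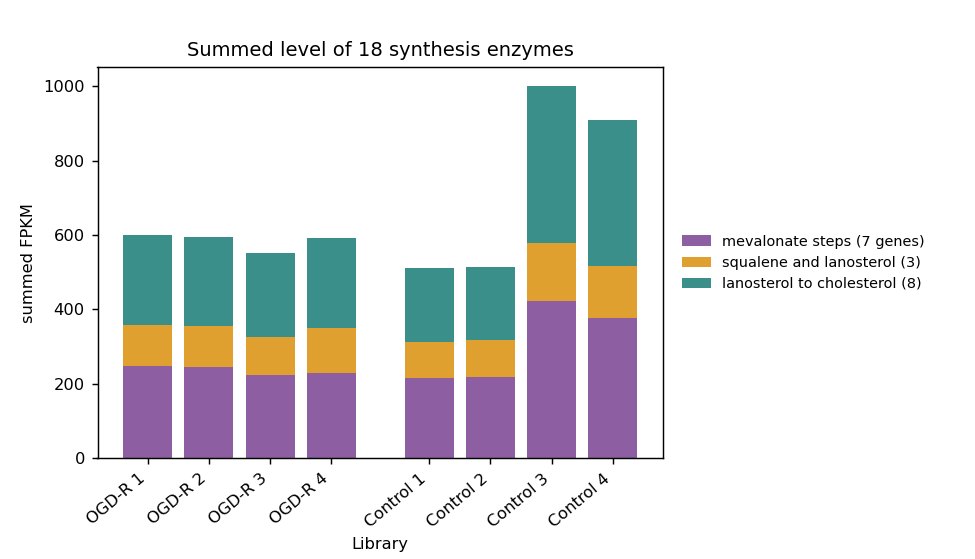
Summed FPKM of the 18 synthesis enzymes in each library, stacked by the section of the route. OGD-R libraries reach 552 to 600.3 FPKM, Controls 1 and 2 reach 512 and 513 FPKM, and Controls 3 and 4 reach 1001 and 908 FPKM.

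Among the 4 genes that control SREBP, INSIG1 had the largest spread of all 28 genes among the Controls and the smallest among OGD-R libraries. INSIG1, which retains SCAP and SREBP when sterols are plentiful and is itself a SREBP target, measured 11.5, 11.7, 11.6 and 11.6 FPKM across OGD-R 1 to 4, whereas Controls 1 to 4 measured 6.03, 5.54, 107 and 99.6 FPKM. The highest library was 1.011 times the lowest in OGD-R and 19.2 times the lowest in Control. The means were 11.6 ± 0.0560 FPKM in OGD-R and 54.4 ± 56.3 FPKM in Control (SD, n = 4 each), and the log2 fold change of -1.08 ± 0.98 did not pass (SE; limma adjusted p = 0.473). It was 0.89 without Controls 3 and 4 (limma adjusted p = 9.33e-06) and -3.05 without Controls 1 and 2 (limma adjusted p = 1.86e-09), passing in opposite directions. INSIG2, the second retention protein, showed no such spread, with 7.03, 6.84, 6.17 and 6.79 FPKM in OGD-R and 6.51, 8.71, 7.69 and 6.04 FPKM in Controls 1 to 4. SREBF2 was at 31.1, 27.8, 27.7 and 26.3 FPKM in OGD-R and 17.6, 16.5, 41.8 and 40.6 FPKM in Controls 1 to 4, between the pairs in every library. Like INSIG1, it passed in both reduced fits with opposite signs. Its log2 fold change was 0.078 with all libraries (limma adjusted p = 0.883), 0.69 without Controls 3 and 4 (limma adjusted p = 8.33e-05) and -0.53 without Controls 1 and 2 (limma adjusted p = 0.000214). SCAP was at 9.42, 8.35, 8.39 and 9.27 FPKM in OGD-R and 11.5, 10.2, 9.28 and 9.89 FPKM in Controls 1 to 4, so the groups overlapped. It fell by 0.27 on the log2 scale without Controls 3 and 4 (limma adjusted p = 0.0219) and did not pass otherwise.

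**Figure D3:**
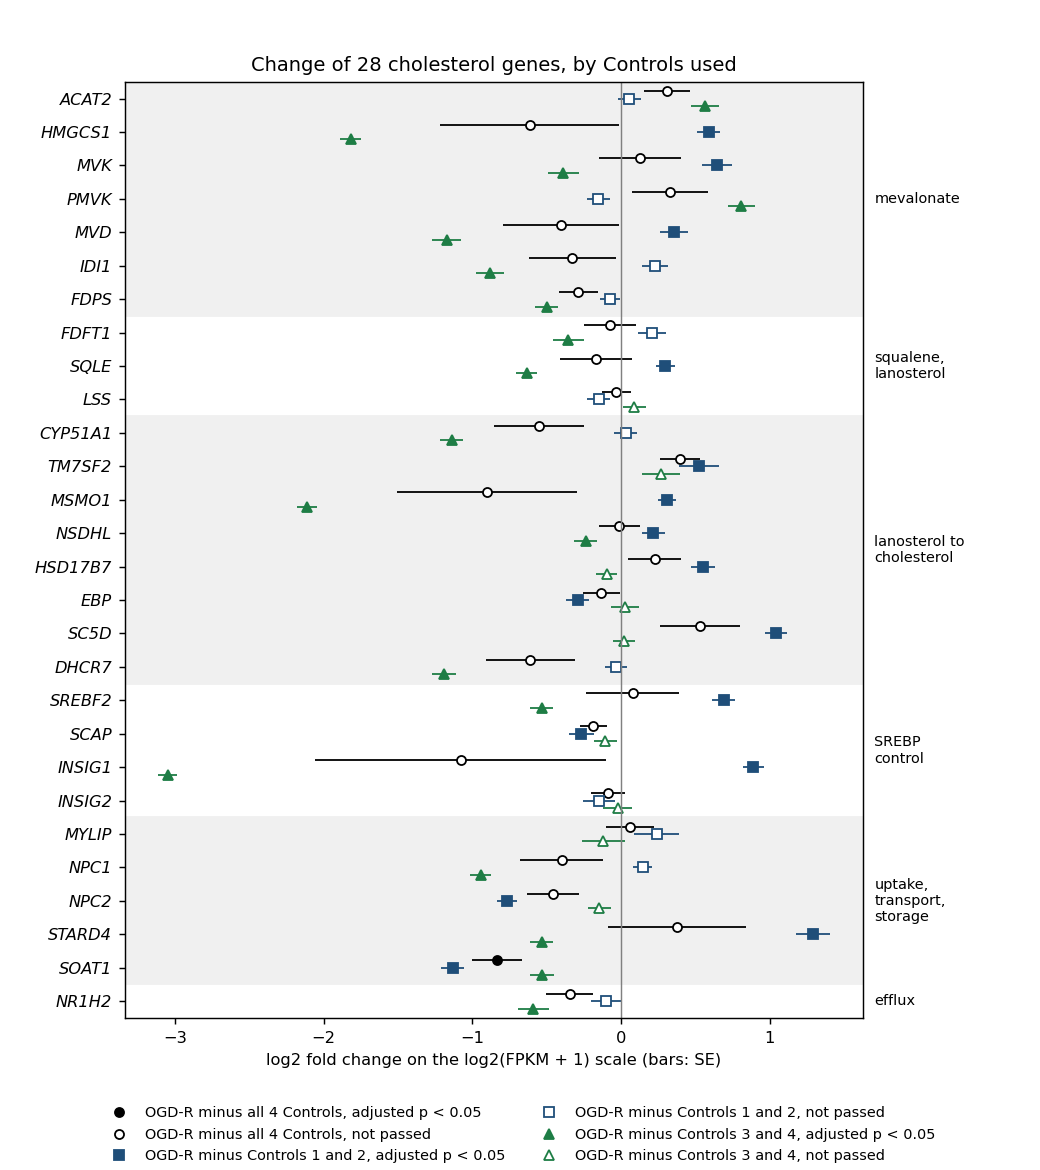
Log2 fold change of OGD-R against all 4 Controls (black), Controls 1 and 2 (blue) and Controls 3 and 4 (green) for the 28 tested genes, with SE as bars; filled marks passed a limma adjusted p of 0.05. INSIG1, HMGCS1 and MSMO1 carry filled marks on both sides of 0, and SOAT1 carries 3 filled marks below 0.

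SOAT1 was lower in OGD-R than in every Control. OGD-R 1 to 4 measured 4.35, 4.71, 4.32 and 4.71 FPKM, whereas Controls 1 to 4 measured 10.8, 11.4, 7.42 and 6.56 FPKM, so the lowest Control was above the highest OGD-R library. The mean was 4.52 ± 0.217 FPKM in OGD-R and 9.04 ± 2.41 FPKM in Control (SD, n = 4 each). The Controls formed 2 close pairs, which limma counted as 4 separate libraries. The log2 fold change, -0.83 ± 0.17 (SE), passed the test (limma adjusted p = 0.0115), with SOAT1 lower in 4 of 4 OGD-R libraries. It was -1.13 without Controls 3 and 4 (limma adjusted p = 4.32e-06) and -0.53 without Controls 1 and 2 (limma adjusted p = 0.000345), so its size, but not its direction or call, depended on the pair. SOAT1 (ENSG00000057252) lies on chromosome 1, 179293714 to 179358680, plus strand, in GENCODE 29 on GRCh38. Of 6 leukocyte markers, the summed level was also lower in OGD-R, at 3.23 to 3.997 FPKM against 12.5 to 16.8 FPKM in Control. CD68, a lysosomal protein, carried nearly all of it, at 2.94 to 3.74 FPKM in OGD-R and 12.3 to 16.7 FPKM in Control. PTPRC, the marker of all leukocytes, was at most 0.0122 FPKM in OGD-R and 0.0245 FPKM in Control. Of the 6 markers, 5 stayed under 1 FPKM in every library, and whether such cells bear on SOAT1 was not tested. Mitochondrial messages, which differed between the groups as given above, left the SOAT1 call in place when libraries were scaled without them, with a log2 fold change of -0.77 (limma adjusted p = 0.00866).

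**Figure D4:**
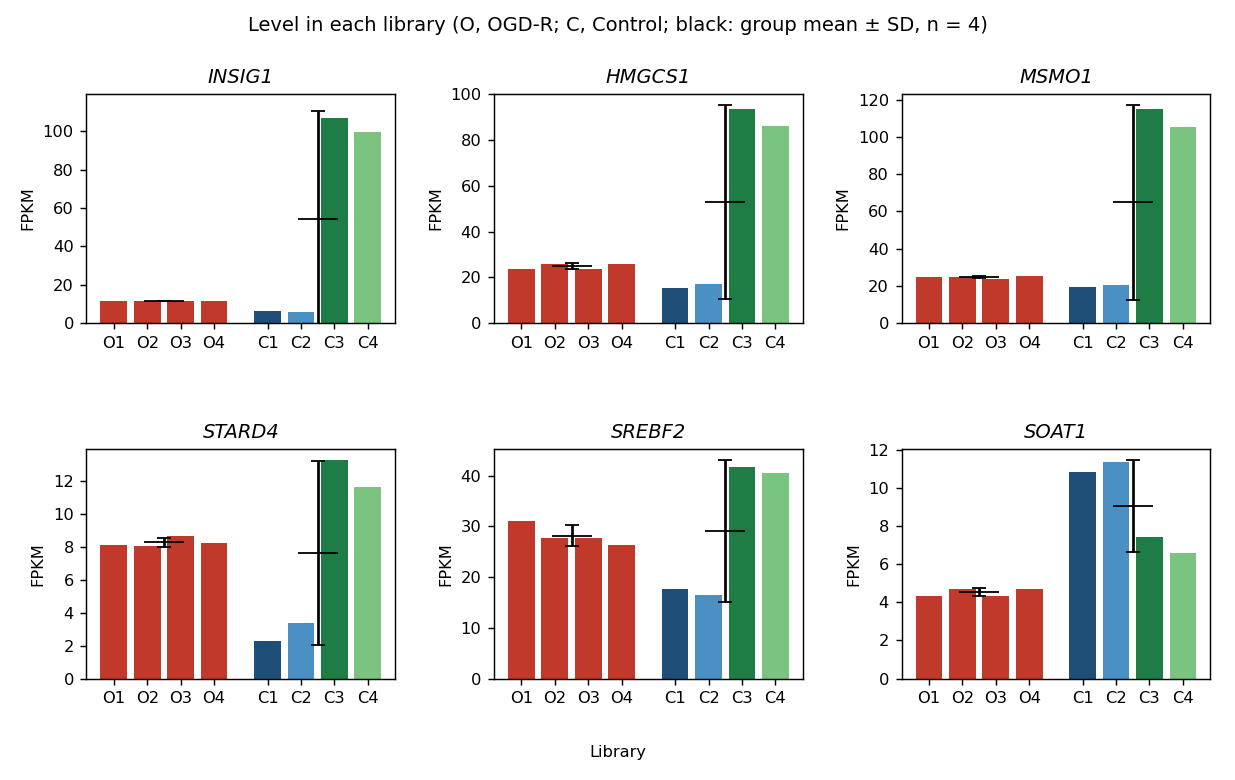
FPKM of 6 genes in each library, with OGD-R 1 to 4 in red and Controls 1 to 4 in blue and green; black marks give the group mean ± SD (n = 4). INSIG1, HMGCS1, MSMO1, STARD4 and SREBF2 place OGD-R between Controls 1 and 2 and Controls 3 and 4, while SOAT1 places it below all Controls.

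The other 4 genes of uptake and movement did not pass with all libraries. STARD4, which carries sterol between membranes, was at 8.14, 8.05, 8.68 and 8.24 FPKM in OGD-R and 2.27, 3.40, 13.3 and 11.6 FPKM in Controls 1 to 4, between the pairs. The log2 fold change reached 1.29 without Controls 3 and 4 (limma adjusted p = 2.10e-05), the largest increase of the 28 genes in that fit, and -0.53 without Controls 1 and 2 (limma adjusted p = 0.000225). NPC1 and NPC2 hand cholesterol out of the lysosome in sequence, and their levels were ordered differently. NPC1 was at 17.4, 17.2, 17.3 and 18.7 FPKM in OGD-R and 16.4, 15.4, 36.4 and 33.5 FPKM in Controls 1 to 4, close above Controls 1 and 2. NPC2 was at 82.9, 82.95, 91.01 and 91.9 FPKM in OGD-R and 154, 144, 102 and 91.01 FPKM in Controls 1 to 4, far below Controls 1 and 2 and overlapping Control 4. NPC2 fell by 0.77 on the log2 scale without Controls 3 and 4 (limma adjusted p = 2.03e-05), while with all libraries its log2 fold change of -0.46 did not pass (limma adjusted p = 0.105). Without Control 4 alone it did pass, with a log2 fold change of -0.59 (limma adjusted p = 0.0365). Both NPC genes overlap another coding gene. MYLIP, which sends the lipoprotein receptor of cholesterol uptake to degradation, was near the filter of 1 FPKM, at 0.903, 0.823, 1.19 and 1.57 FPKM in OGD-R and 0.937, 0.633, 1.38 and 1.18 FPKM in Controls 1 to 4, and the groups overlapped.

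The exporters were barely detected. Neither gene reached the filter. ABCA1, which loads cholesterol onto apolipoprotein A-I, was listed at 0 in OGD-R 1 and measured 0.0102, 0.0385 and 0.00421 FPKM across OGD-R 2 to 4. In Control 2 it was also listed at 0, and Controls 1, 3 and 4 measured 0.0606, 0.0947 and 0.0943 FPKM. ABCG1, which exports cholesterol to high-density lipoprotein, was listed at 0 in all 4 OGD-R libraries and was at 0.0570, 0.0242, 0.312 and 0.337 FPKM in Controls 1 to 4. The 2 highest values of ABCG1 were those of Controls 3 and 4, and no fold is given against a group listed at 0. NR1H2, the liver X receptor beta gene, overlaps the coding gene NAPSA and was expressed at 21.6, 19.7, 17.1 and 17.05 FPKM in OGD-R and 21.1, 19.3, 30.4 and 27.1 FPKM in Controls 1 to 4. Its OGD-R libraries overlapped Controls 1 and 2 and lay below Controls 3 and 4, and the log2 fold change came to -0.59 without Controls 1 and 2 (limma adjusted p = 0.000768).

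Other sterol and isoprenoid genes were taken from a list of 38 found in the tables, of which 30 were tested. Of these, 2 rose and 3 fell with all libraries, near the background of 10.2% higher and 9.69% lower over all genes. In all 5 the groups did not overlap. Among the 30, OGD-R lay wholly above the Controls in 4 and wholly below them in 4. Over all genes tested the shares were 15.2% above and 14.8% below. Without Controls 3 and 4, 7 of the 30 were called higher and 12 lower, beside 22.8% and 32.4% of all genes tested. Without Controls 1 and 2, 14 of the 30 were called higher and 9 lower, beside 39.2% and 28.4%. LRP1, an endocytic lipoprotein receptor, measured 13.4, 12.1, 12.2 and 11.6 FPKM across OGD-R and 4.54, 4.38, 7.92 and 6.75 FPKM across Controls 1 to 4, a log2 fold change of 0.98 (limma adjusted p = 0.0062). SCARB1, the high-density lipoprotein receptor, rose, with a mean of 28.4 ± 2.20 FPKM in OGD-R and 21.6 ± 1.61 FPKM in Control (SD, n = 4 each; limma adjusted p = 0.0234). The 3 genes that fell act inside the cell. STARD3, a late endosomal sterol carrier, fell, with a mean of 21.5 ± 1.41 FPKM in OGD-R and 31.5 ± 1.53 FPKM in Control (SD, n = 4 each; limma adjusted p = 0.00377). GRAMD1A, a sterol carrier between plasma membrane and endoplasmic reticulum, was at 3.36 ± 0.464 FPKM in OGD-R and 6.33 ± 1.56 FPKM in Control (SD, n = 4 each; limma adjusted p = 0.0167). NUS1, a subunit of the dolichol-forming prenyltransferase, was at 11.2 ± 0.457 FPKM in OGD-R and 13.8 ± 0.741 FPKM in Control (SD, n = 4 each; limma adjusted p = 0.042). The median log2 fold change of the 30 was -0.03, beside 0.02 for all genes. SREBF1, which encodes the related SREBP-1 and was picked after its values were seen, did not pass with all libraries (limma adjusted p = 0.91). OGD-R measured 18.3, 14.8, 16.3 and 15.4 FPKM, against 8.88, 8.99, 32.6 and 31.7 FPKM in Controls 1 to 4, the same order as SREBF2.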

How the data were processed

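Each deposited table lists gene IDs, symbols and expression values of 1 library. The deposited values were read as FPKM; their unit, aligner, genome build and counting tool were not given in the sources used here. Per the labels' protocols, libraries came from total RNA, and both a NEBNext and a SMARTer kit are named. The unit rests on 16 to 28 of 88 to 125 low values per library, in 915 single-exon genes, within 0.5% of a step. That step was picked from many tried as the one with the most hits, so the hits were maximised on the same values. Other units scaled to gene length could also show such a step. The step could be 1 fragment or 1 read of a pair, so no depth is given. FPKM is relative to the library total. Samples were grouped by title. The value column of the Control 3 table has a shortened header, and its library was taken from the series' file records.

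OGD-R was compared with Control by limma 3.58.1 (R 4.3.3, two-sided, intensity trend) on log2(FPKM + 1) for the 11740 genes averaging 1 FPKM or more over all libraries, with Benjamini-Hochberg adjustment; this scale understates changes of low genes. The fit was tested on simulated data. There every library had the OGD-R spread and the Controls were not split, so it does not show how the fit behaves with that split. All 30 members are named, and of the other list those called without overlap between groups; SREBF1 and the genes under other observations were added after their values were seen. Members and lists were chosen with earlier results of these data known. Alternatives covered the pseudocount, filter, scaling, trend, replicate block, and single or paired Controls left out. All 19974 Ensembl IDs of the 24252 rows were found in GENCODE 29, which gave coordinates. At most 1 value above 0 was identical between any pair of libraries. Figures used matplotlib 3.10.9 in Python 3.11.15.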

Additional observations from a re-analysis of the deposited data

Results flagged for a closer look

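Among 59 sets of 4 libraries (30 genes in each group, without the set that was 0 throughout), 2 held a library set apart from its group by Dixon's ratio, above its critical value for 4. Chance flags about 1 in 20 groups whose values are not split. Control sets that fall into 2 pairs can hardly be flagged by this ratio, so fewer than 59 sets were open to it. Both flags were in OGD-R sets. DHCR7 was at 31.1 FPKM in OGD-R 3, against 35.04 to 35.8 FPKM in the other OGD-R libraries (ratio 0.841). NPC1 was at 18.7 FPKM in OGD-R 4, against 17.2 to 17.4 FPKM in the other OGD-R libraries (ratio 0.887). Without the library concerned, the log2 fold change was -0.56 for DHCR7 and -0.43 for NPC1, and neither passed.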

How the results depend on the processing

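The count of cholesterol genes called with all libraries, 0 higher and 1 lower, was the same for another pseudocount, no filter, quantile normalization, scaling without mitochondrial genes, no intensity trend and the replicate block. Under these 6 settings SOAT1 stayed below 0 and called, with an adjusted p of 0.00393 to 0.0392. SOAT1 also stayed called with any single library left out (adjusted p = 0.00549 to 0.0426). With single libraries left out, 0 were called higher and 1 to 2 lower; the second was NPC2, without Control 4 (log2 fold change -0.59, adjusted p = 0.0365). Without Controls 3 and 4 the counts were 12 higher and 4 lower, and without Controls 1 and 2 they were 2 higher and 17 lower; for all genes they were 2673 and 3807, and 4603 and 3337, against 1202 and 1138 with all libraries. The replicate block gave 625 and 507 over all genes. Same-numbered libraries deviated together at correlations of 0.045 to 0.0646. Deviations of the Controls hold the split between their pairs, so these correlations cannot settle whether the numbers mark pairs. The main fit was set without a replicate block. With single libraries left out, 711 to 1426 genes were higher and 561 to 1312 lower; without any 1 OGD-R library the counts were 711 to 744 and 561 to 669.

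Signs turned without Controls 3 and 4 in HMGCS1 (0.59), PMVK (-0.15), MVD (0.36), IDI1 (0.23), FDFT1 (0.21), SQLE (0.30), CYP51A1 (0.033), MSMO1 (0.31), NSDHL (0.22), INSIG1 (0.89) and NPC1 (0.15). Without Controls 1 and 2 they turned in MVK (-0.39), LSS (0.091), HSD17B7 (-0.096), EBP (0.028), SREBF2 (-0.53), MYLIP (-0.12) and STARD4 (-0.53). Quantile normalization turned FDFT1 (0.041), NSDHL (0.041) and MYLIP (-0.16), and scaling without mitochondrial genes turned FDFT1 (0.0016), LSS (0.039) and NSDHL (0.061). With single libraries left out, ranges that crossed 0 were MVK -0.048 to 0.32, LSS -0.080 to 0.014, SREBF2 -0.14 to 0.29, MYLIP -0.040 to 0.14, FDFT1 -0.19 to 0.059 and NSDHL -0.11 to 0.084. None of these genes passed with all libraries. Leaving out pairs also removes samples, and the cause of the Control split was not tested. Low levels limit ABCA1, ABCG1 and MYLIP most.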

Other observations

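Some sterol genes had the opposite order to INSIG1 and HMGCS1 among the Controls. Of the 30 other sterol and isoprenoid genes tested, 7 had all OGD-R libraries below Controls 1 and 2 and above Controls 3 and 4, an order that 0 of the 28 members showed and 13.6% of all genes tested showed; 3 of the 30, SREBF1, OSBP and OSBPL9, lay the other way round. Controls 3 and 4 were above Controls 1 and 2 in 10 of the 30 and below in 17, beside 34.1% and 48.1% of all genes tested. The examples were picked after their values were seen. TMEM97, a sterol-responsive protein that binds NPC1, was at 9.39, 9.83, 8.24 and 10.1 FPKM in OGD-R and 10.2, 10.8, 2.63 and 2.54 FPKM in Controls 1 to 4. NCEH1, a cholesteryl ester hydrolase, was at 7.71, 6.82, 6.89 and 6.93 FPKM in OGD-R and 9.99, 12.3, 3.64 and 3.05 FPKM in Controls 1 to 4. NR1H3, the liver X receptor alpha gene, was at 5.46, 4.78, 4.67 and 4.49 FPKM in OGD-R and 7.70, 6.98, 3.39 and 2.83 FPKM in Controls 1 to 4, while its relative NR1H2 was highest in Controls 3 and 4. LBR, which also acts as a sterol reductase and is in the nuclear envelope, was at 33.5, 31.6, 28.1 and 29.9 FPKM in OGD-R and 34.8, 40.4, 19.7 and 16.4 FPKM in Controls 1 to 4, whereas the reductase TM7SF2 was highest in OGD-R. With all libraries none of these 4 passed (limma adjusted p = 0.288, 0.799, 0.999 and 0.585).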
